A study of Mus musculus with 24 samples.

Results

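Livers of male C57Bl/6J mice that had eaten a Western diet and inhaled vinyl chloride for 12 weeks were compared with livers of mice on a control diet in clean air. The members are the 6 libraries whose labels give these conditions, 3 named w12_WD+VC and 3 named w12_CD, of 24 libraries in the series. The series crossed diet with VC exposure and sampled liver RNA at 12 weeks and at 12 months, in 8 groups of 3 libraries. Mice of w12_CD were fed 13% fat and breathed air, and mice of w12_WD+VC were fed 42% fat and breathed VC at about 0.85 ± 0.1 ppm. The chambers were used 6 hours a day on 5 days a week for 12 weeks. Tissue was taken at the end of exposure after a 4-hour fast. All 24 libraries entered 1 model and so set its filter, scaling and spread, and some of the other groups are used below to divide or follow the same comparison. Group w12_CD+VC had VC on the control diet, w12_WD had the Western diet in air, and m12_CD and m12_WD+VC were kept for 9 further months after the same 12 weeks. Whether the 3 libraries of a group are 3 animals is not said in the labels, and the spread behind the p-values may then be technical. Diet and VC differ together here, so their parts in a change cannot be told apart within these 6 libraries.

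Vinyl chloride is an industrial monomer. In hepatocytes CYP2E1 oxidises it to a reactive epoxide and an aldehyde, which glutathione transferases and aldehyde dehydrogenases clear, and etheno adducts that form on DNA are removed by base excision repair. A Western diet loads the liver with fat and cholesterol, lowers the cell's own sterol synthesis through the sterol-sensing SREBP pathway, and can start a mild acute-phase response, in which hepatocytes secrete plasma proteins under the control of C/EBP and STAT factors.

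The 6 libraries were shallow, with 258401, 316594 and 399052 counts in w12_CD and 566870, 283813 and 152082 in w12_WD+VC. Between 7487 and 9521 gene entries had a count in each w12_WD+VC library, against 7689 to 9295 in w12_CD. A count of 0 allows up to 3 counts, which is 9.9 to 11.8 CPM (counts scaled to a common library size) in the w12_CD libraries and 6.69 to 20.4 in the w12_WD+VC libraries. All CPM values below are scaled by edgeR's TMM factors. Entries whose exons meet no gene on the other strand took 17.1% ± 4.57 of counts in w12_CD and 17.0% ± 2.60 in w12_WD+VC (SD, n = 3). Most counts lie in entries that do meet one. Not given in the sources used here is whether counting used strand, so reads of a gene and of its opposite-strand partner cannot be told apart. Over all 24 libraries Gm30505, which lies opposite the plasma protein gene Ahsg, held 811098 counts, and Ahsg held 9493. Gm30505 and Gm10069 together took a mean of 19.7% of counts in w12_CD and 20.3% in w12_WD+VC. Whether reads were counted on the intended strand was not tested. Each gene named below is 1 entry of the count table. Albumin, Alb, the hepatocyte's main secreted protein, stood at 6827, 3569 and 3595 CPM in w12_CD and 3310, 3632 and 4457 in w12_WD+VC, in overlapping groups (log2 fold change -0.30 ± 0.40 SE, edgeR adjusted p = 0.817). In whole liver, fewer cells of a type and less RNA per cell cannot be told apart.

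Of 4198 genes tested with edgeR's quasi-likelihood test, 33 passed a Benjamini-Hochberg adjusted p of 0.05, or 0.786%, with 13 higher (0.31%) and 20 lower (0.476%) in w12_WD+VC. An unadjusted p under 0.05 was reached by 578 genes. Fold changes of the 33 ran from 2.01 to 22.3, and over all genes tested the median was 0.01 on the log2 scale. The higher genes included the stress-responsive transcription factor Cebpb and the apolipoprotein Saa4, and the lower genes included the DNA ligase Lig3 and the lipoprotein receptor Lsr. Genes named below for their fold change were chosen among calls with groups that do not overlap, so that separation is no further support for them. The plot of all genes tested shows how few were called, and some uncalled genes lie further from 0 than some called ones. Scaling by RLE size factors in place of TMM called 43 genes and gave a more even split, 22 higher and 21 lower, and DESeq2 called 25 and 25. The count depended on single libraries: it was 13 without w12_CD replicate 1, 1 without w12_WD+VC replicate 1, 12 without w12_WD+VC replicate 2 and 57 without w12_WD+VC replicate 3. With 12 weeks alone it was 52 of 2617 genes tested. None of the 33 passed in each of the 6 leave-one-out fits, and none changed sign in any alternative that gave it a value.

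**Figure D1:**
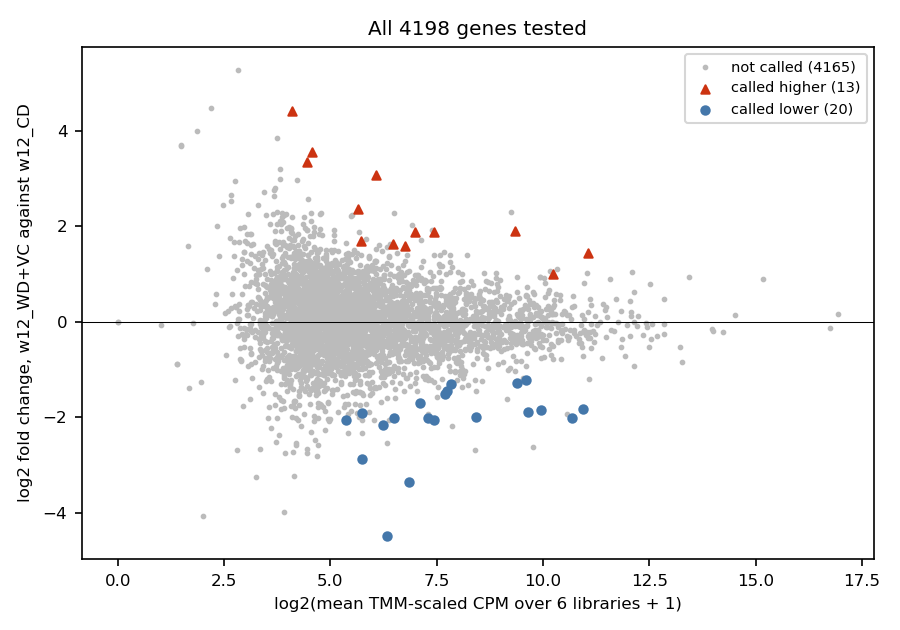
All 4198 genes tested, with the log2 fold change of w12_WD+VC against w12_CD on the vertical axis and log2 of the mean TMM-scaled CPM over the 6 libraries plus 1 on the horizontal axis. The 13 genes called higher (triangles) and 20 called lower (large circles) passed by adjusted p. Some uncalled genes, such as Scd1 at -2.63, lie further from 0 than some of them. The cloud is centred on a median of 0.01, and low-count genes spread most.

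Cebpb, which encodes the bZIP factor C/EBP-beta that inflammatory signals raise in hepatocytes, rose. It stood at 63.2, 66.1 and 92.4 CPM in w12_CD and at 297, 294 and 225 in w12_WD+VC. Every treated library lay far above every control library. The log2 fold change was 1.88 ± 0.34 (SE), with an edgeR adjusted p of 0.00639, and the adjusted p was 0.0613 without w12_WD+VC replicate 1. The entry (GRCm38 chromosome 2, 167688915 to 167690418, plus strand) shares exon bases with Tmem189 on the minus strand, which had 3 counts over the w12_CD libraries and 6 over the w12_WD+VC libraries.

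Saa4, a constitutive serum amyloid A protein carried on high-density lipoprotein, also rose. Its values were 213, 386 and 225 CPM in w12_CD against 952, 931 and 1200 in w12_WD+VC. The groups were far apart, at means of 274 ± 96.4 and 1028 ± 149 CPM (SD, n = 3). The log2 fold change was 1.90 ± 0.38 with an edgeR adjusted p of 0.0101, which became 0.0644 without w12_CD replicate 1 and 0.0613 without w12_WD+VC replicate 1. Saa4 (chromosome 7, 46727998 to 46732603, minus strand) meets no exon on the other strand. Whether reads of related serum amyloid A genes were assigned to it was not tested.

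The promoters of these 2 genes are printed as background, since C/EBP factors are textbook regulators of acute-phase serum amyloid A genes. Saa4 is a constitutive member of that family. Both genes were chosen as calls of the same comparison, and a link between their changes was not tested. Each is the RefSeq window of 250 bases before to 50 bases after the start on GRCm38.p6, read 5′ to 3′ on the gene's strand, for Saa4 at chr7:46732554-46732853 (minus) and for Cebpb at chr2:167688665-167688964 (plus). Capitals mark matches to TTGCNNAA, a loose form of the C/EBP site, on either strand (TTNNGCAA when read on the other).
Saa4: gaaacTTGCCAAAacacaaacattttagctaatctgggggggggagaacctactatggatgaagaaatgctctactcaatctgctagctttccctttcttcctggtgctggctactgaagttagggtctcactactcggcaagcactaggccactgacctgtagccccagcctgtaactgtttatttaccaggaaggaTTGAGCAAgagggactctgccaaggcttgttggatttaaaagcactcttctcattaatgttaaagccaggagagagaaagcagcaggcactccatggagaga
Cebpb: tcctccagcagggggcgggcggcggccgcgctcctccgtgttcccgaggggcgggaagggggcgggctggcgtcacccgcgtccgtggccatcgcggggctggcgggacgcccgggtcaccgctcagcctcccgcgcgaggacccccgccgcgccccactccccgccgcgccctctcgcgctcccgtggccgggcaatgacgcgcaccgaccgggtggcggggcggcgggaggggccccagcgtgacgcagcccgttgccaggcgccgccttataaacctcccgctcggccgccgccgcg
The Saa4 window holds 2 matches, TTGCCAAA starting 245 bases before the start and TTGAGCAA starting 52 bases before it, and the Cebpb window holds none. Of 32851 mouse promoters in the RefSeq table, 10.8% hold at least 1 match and 0.941% hold 2 or more. A site that matches on both strands counts as 2 here. These shares are per promoter of that table, while the next counts are per gene. Of the 11 higher genes with a promoter there 2 had a match, and of the 16 lower genes 3 did. These letters describe the windows and say nothing of which factor was bound.

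Itgb1 and the gene of a protein that binds its tail changed in opposite directions. Both were chosen as calls of the same comparison, and a link between their changes was not tested. Itgb1, the beta-1 integrin chain that joins hepatocytes and other cells to matrix, rose from 55.3, 62.4 and 39.6 CPM to 138, 143 and 204 (log2 1.60 ± 0.37, edgeR adjusted p = 0.0217). Itgb1bp1, whose product ICAP-1 binds the tail of beta-1 integrin and restrains it, fell from 82.9, 147 and 139 CPM to 26.8, 37.7 and 13.6 (log2 -2.16 ± 0.46, edgeR adjusted p = 0.014). Neither gene had overlapping groups. The Itgb1 call was lost in each of the 6 fits that left out a library, with adjusted p from 0.0504 to 0.102. The Itgb1bp1 call was lost without w12_WD+VC replicate 1 (adjusted p = 0.103). In the same comparison at 12 months the log2 fold changes were 0.20 for Itgb1 and 0.34 for Itgb1bp1, and neither was called. Exons of Itgb1bp1 overlap those of Asap2, which was counted at 95.4 to 203 CPM in w12_WD+VC and 121 to 142 in w12_CD and was not called.

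Igfbp2, a circulating binding protein for insulin-like growth factors, stood at 59.2, 44.1 and 26.4 CPM in w12_CD and 143, 130 and 123 in w12_WD+VC. App, the amyloid precursor protein, stood at 23.7, 29.4 and 19.8 against 78.1, 83.9 and 75.0. Reep6, which shapes endoplasmic reticulum membranes, stood at 770, 753 and 865 against 1818, 1489 and 1486. The groups did not touch for any of the 3, with log2 fold changes of 1.63 ± 0.40 for Igfbp2, 1.69 ± 0.41 for App and 1.01 ± 0.25 for Reep6. Their edgeR adjusted p-values were 0.0336, 0.0311 and 0.0468, near the threshold. They reached at most 0.161 for Igfbp2, 0.141 for App and 0.235 for Reep6 when single libraries were left out.

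Tor1a, torsin-1A, an ATPase of the endoplasmic reticulum lumen and nuclear envelope, stood at 7.90, 33.1 and 3.30 CPM in w12_CD and 192, 130 and 34.1 in w12_WD+VC. The lowest treated library was only just above the highest control library, while the other two treated libraries were far above. The log2 fold change was 3.08 ± 0.55 (edgeR adjusted p = 0.00639; 0.101 without w12_WD+VC replicate 1). Nmt1, N-myristoyltransferase, went from 27.6, 11 and 9.90 CPM to 93.7, 71.3 and 81.8 (log2 2.36 ± 0.50, adjusted p = 0.0123). Pitpna, a phosphatidylinositol transfer protein, went from 23.7, 55.1 and 79.2 CPM to 143, 281 and 170 (log2 1.88 ± 0.42, adjusted p = 0.0208). Both separated the groups in every library.

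Ccdc85b, a small coiled-coil protein, had 1 count over the w12_CD libraries and 30 over the w12_WD+VC libraries, at 40.1, 46.1 and 6.82 CPM. The ratio of scaled counts was 29.8 with a 95% counting interval of 4.96 to 1216, and the edgeR adjusted p was 0.0271. Its exons overlap Fosl1, which was not called (log2 0.36). The other 3 higher genes were singled out after their values were seen. Gm6297, a predicted gene on the strand opposite the chaperone gene Dnaja1, stood at 916, 1087 and 1436 CPM against 4133, 2789 and 2440 (adjusted p = 0.0101). BC037032 went from 3 counts to 37, a ratio of 12.3 (interval 3.88 to 62.1). Ifi27l2b, of an interferon-inducible family, went from 3 counts to 44, a ratio of 14.6 (interval 4.67 to 73.4), but w12_WD+VC replicate 3 had 0, so its groups overlap.

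**Figure D2:**
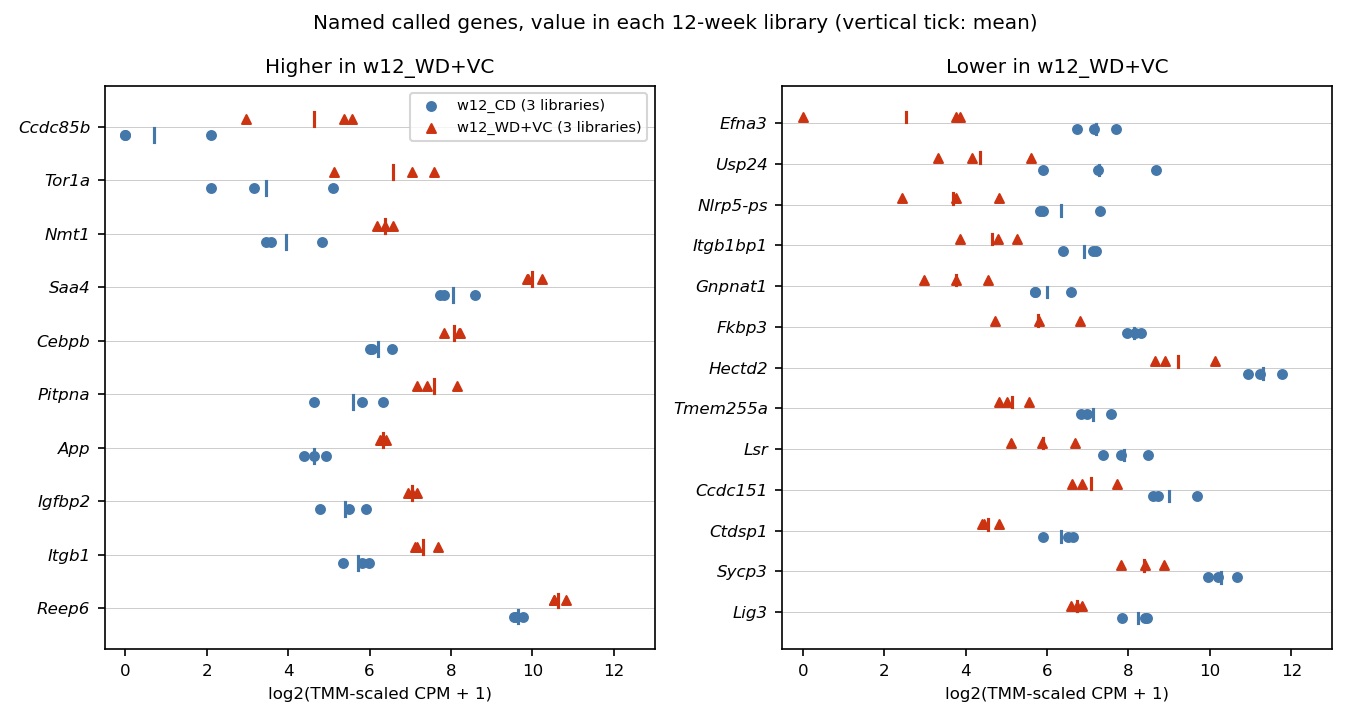
Called genes chosen by the naming rule, with log2(TMM-scaled CPM + 1) of each 12-week library on the horizontal axis (circles w12_CD, triangles w12_WD+VC, 3 libraries each; vertical ticks are means). The 10 genes on the left are higher and the 13 on the right are lower in w12_WD+VC. Groups that do not overlap were a condition of choice for all but Lig3, which was named from its gene list and does not overlap either.

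The lower genes included enzymes of DNA repair, ubiquitin removal and amino sugar synthesis. Lig3, the DNA ligase that seals nicks in base excision repair with Xrcc1, stood at 351, 338 and 228 CPM in w12_CD and at 116, 105 and 95.4 in w12_WD+VC. The treated libraries lay close together and well below the lowest control library. The log2 fold change was -1.51 ± 0.33 (edgeR adjusted p = 0.0179; between 0.0203 and 0.123 with single libraries left out). Exons of Lig3 (chromosome 11, 82781108 to 82804274, plus strand) overlap 1826 exon bases of Rffl, an entry that stood at 170, 209 and 221 CPM against 109, 75.5 and 81.8 and did not pass the test (adjusted p = 0.0798).

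Lsr, the lipolysis-stimulated receptor through which hepatocytes take up triglyceride-rich lipoproteins, fell from 355, 165 and 225 CPM to 58.0, 33.6 and 102 (log2 -2.01 ± 0.46, edgeR adjusted p = 0.0217). Usp24, a deubiquitinating enzyme, went from 407, 58.8 and 152 CPM to 8.92, 16.8 and 47.7 (log2 -3.35 ± 0.69, adjusted p = 0.0104). The w12_CD values of Usp24 ranged widely, and without replicate 1 its log2 fold change was -2.42 with an adjusted p of 0.097. Gnpnat1, an acetyltransferase of the hexosamine pathway, went from 51.3, 51.4 and 95.7 CPM to 22.3, 12.6 and 6.82 (log2 -2.05 ± 0.53, adjusted p = 0.0491). It was lost in 12 of 13 alternatives. Exons of Gnpnat1 overlap 3878 exon bases of Styx, which had more counts, 276 over w12_CD and 180 over w12_WD+VC. Styx had the same sign (log2 -0.86) and was not called. The entry of Lsr overlaps Gm4673.

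Efna3, an ephrin ligand of Eph receptors, had the largest fold among the lower genes. It stood at 205, 106 and 142 CPM in w12_CD and at 0, 12.6 and 13.6 in w12_WD+VC, 124 counts against 5. The log2 fold change was -4.48 ± 0.86 (edgeR adjusted p = 0.00964; 0.101 without w12_WD+VC replicate 1). Fkbp3, a nuclear prolyl isomerase whose entry overlaps Prpf39 (log2 -0.45, not called), stood at 284, 250 and 314 CPM against 112, 25.2 and 54.5. It was the one call that remained without w12_WD+VC replicate 1, and it was lost without w12_WD+VC replicate 2 (adjusted p = 0.0101 in the fit of all libraries and 0.108 there).

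Ctdsp1, a small phosphatase of the RNA polymerase II tail, went from 90.8, 58.8 and 99.0 CPM to 20.1, 21.0 and 27.3 (log2 -1.90 ± 0.44, edgeR adjusted p = 0.0217). Sycp3, a meiotic axis protein, went from 1181, 1616 and 987 CPM to 341, 226 and 470 (log2 -1.88 ± 0.38, adjusted p = 0.0101). Hectd2, a ubiquitin ligase, went from 1962, 3496 and 2394 CPM to 401, 474 and 1111 (log2 -2.01 ± 0.44, adjusted p = 0.0179). The groups did not overlap for these genes. Sycp3 is a germ-cell gene, and its entry overlaps Chpt1, which had 11 and 16 counts in the same groups. Whether the counts of the Sycp3 entry are reads of Sycp3 or of Chpt1 was not tested. The other lower genes chosen by the rule were Ccdc151, Tmem255a and the pseudogene Nlrp5-ps, with log2 fold changes of -2.00, -2.01 and -2.88. Ccdc151 encodes a docking factor of ciliary dynein arms, and its nearest gene on the other strand, Prkcsh, lies 172 bases away.

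The remaining lower genes were singled out after their values were seen. Cox11 (log2 -1.44) and Cox20 (-1.21) encode assembly factors of cytochrome c oxidase. Kdm1b (-1.28) encodes a histone H3 lysine demethylase, and Pfkp (-1.30) the platelet-type phosphofructokinase. Nme7 was at -1.70. Acss2os, which lies opposite the acetyl-CoA synthetase gene Acss2, stood at 2938, 712 and 961 CPM against 448, 365 and 477 (adjusted p = 0.0336), and without w12_CD replicate 1 its log2 fold change was -0.97 in place of -1.84 (adjusted p = 0.334). Hcn3, a channel gene opposite the liver pyruvate kinase gene Pklr, stood at 3309, 2776 and 3103 CPM against 520, 1434 and 641 (adjusted p = 0.0412). Their partners had far fewer counts, with 13 and 3 counts for Acss2 and 25 and 12 for Pklr. Whether the counts of Acss2os and Hcn3 are reads of these entries or of their partners was not tested.

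Entries that share exon bases with a gene on the other strand supplied 22 of the 33 calls, 6 higher and 16 lower. That is 1.04% of the 2121 such entries tested, against 11 calls or 0.542% of the 2030 entries with no such overlap, 7 higher and 4 lower. Of the 22 partners, 18 are in the table. In 14 of these pairs the called entry had more counts over the 6 libraries than its partner. Of the 13 partners tested, 9 had the sign of the called entry, among them Rffl, the partner of Lig3. None was called by edgeR, the smallest adjusted p being 0.0781 for Hnrnpu, the partner of Cox20, which stood at 82.9, 206 and 72.6 CPM against 259, 294 and 266, the opposite direction to Cox20. When entries without an overlap were tested alone, 6 of the 11 calls were kept and Saa4, Itgb1, Igfbp2, Pitpna and Reep6 were not. The part that shared reads have in these calls was not tested.

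The comparison was then divided at w12_CD+VC, the libraries with VC on the control diet. The VC step (w12_CD+VC against w12_CD) and the diet step under VC (w12_WD+VC against w12_CD+VC) add up to the combined change by construction and share libraries with it. The VC step called no gene with edgeR, with DESeq2 or with limma-voom, while edgeR called 5 with no expression filter and 1 among entries without overlap. In the VC step edgeR gave 170 genes an unadjusted p under 0.05 and a smallest adjusted p of 0.0567. The diet step called 22 genes, or 0.524% of those tested, 12 higher (0.286%) and 10 lower (0.238%). It called 0 without w12_WD+VC replicate 1, 10, 6 and 5 without w12_CD+VC replicates 1, 2 and 3, and 11 and 46 without w12_WD+VC replicates 2 and 3. Neither 0 nor 22 shows that one step was larger than the other, since that difference was not tested.

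The called genes differed in how their change divided. Tor1a moved by 0.06 in the VC step and 3.02 in the diet step (diet step edgeR adjusted p = 0.0058), and its w12_CD+VC libraries stood at 10.3, 23.6 and 16.6 CPM, within the w12_CD range. Efna3 moved by 0.13 and -4.61 (0.0058), Usp24 by 0.00 and -3.35 (0.017), Itgb1bp1 by 0.10 and -2.26 (0.017) and Lsr by -0.10 and -1.91 (0.0401). Reep6 moved by -0.22 and 1.22 (0.0182) and Gm6297 by 0.22 and 1.23 (0.0287). Each of these 7 diet-step calls was lost in 2 to 5 of 6 fits that left out a library. For these genes the VC step lay between -0.22 and 0.22. They were picked as called in both the combined comparison and the diet step, a choice that favours a small VC step. Within a gene the steps were not tested against each other. Cebpb instead lay between, at 126, 150 and 210 CPM in w12_CD+VC, with steps of 1.12 and 0.75. Saa4 stood at 250, 803 and 553 CPM, the first within the w12_CD range and the others between the groups, with steps of 0.93 and 0.97. Nmt1 (1.59 and 0.77), Sycp3 (-1.18 and -0.70) and BC037032 (2.68 and 0.68) had the larger part of their change in the VC step, where none was called.

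**Figure D3:**
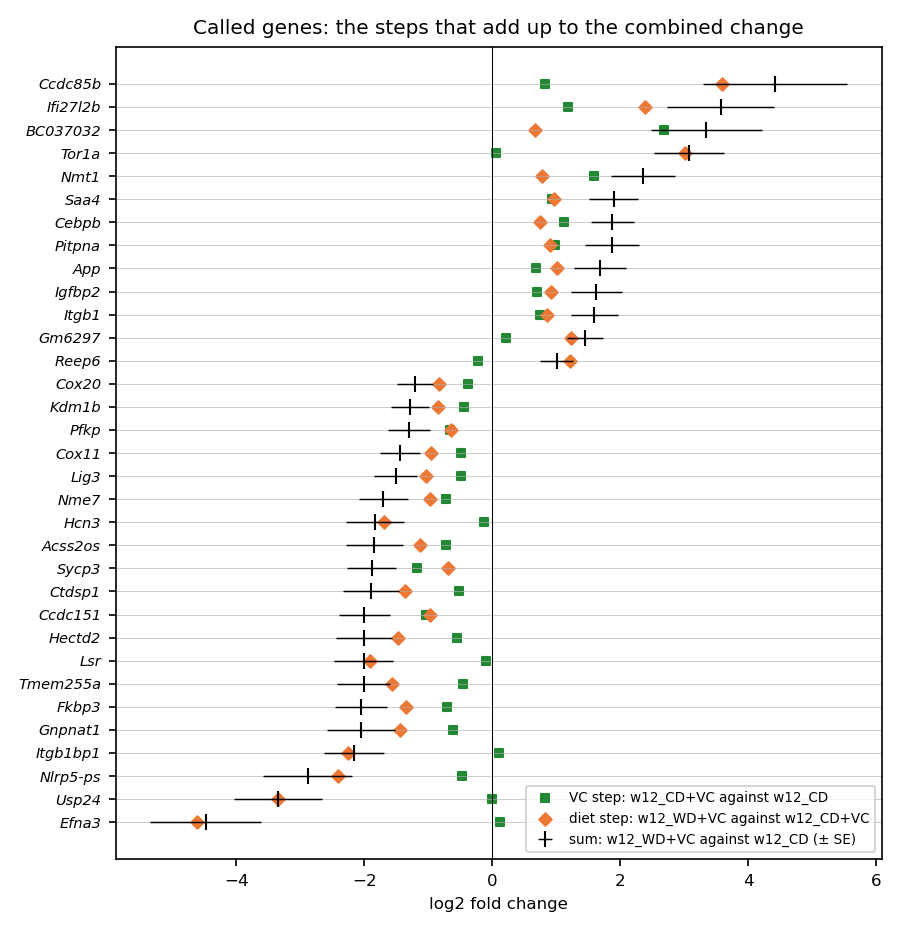
The 33 called genes, with the log2 fold change of the VC step (squares), of the diet step under VC (diamonds) and of their sum, the combined change (black tick ± SE), on the horizontal axis. Squares of Tor1a, Efna3, Usp24, Itgb1bp1 and Lsr lie near 0, while those of Cebpb, Saa4, Nmt1 and Sycp3 lie well away from it.

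Gene lists were described by counts and medians, with no test of a list. Of 42 lists, 40 had a tested member and 2 had a called one. Over all 4198 genes, 2130 lay above 0 and 2066 below, 7.07% were higher and 6.69% lower at an unadjusted p under 0.05, and groups did not overlap for 9.31% in the higher and 9.1% in the lower direction.

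Most tested acute-phase genes lay above 0. Of 18 tested members, 14 lay above 0 and 4 below, the median log2 fold change was 0.76, and Saa4 was the one called. Groups did not overlap, in the higher direction, for 7 members: Saa4, Hp, Orm2, Orm3, Lcn2, Saa1 and Il6ra. Haptoglobin, Hp, which binds free haemoglobin, stood at 474, 808 and 720 CPM in w12_CD and 1247, 1334 and 1254 in w12_WD+VC (log2 0.94 ± 0.35, edgeR adjusted p = 0.213). Fgl1, a hepatocyte-secreted fibrinogen-like protein, stood at 115, 312 and 383 against 143, 105 and 54.5 CPM (adjusted p = 0.266). With single libraries left out, 12 to 15 members lay above 0, with medians from 0.45 to 0.82. The list's summed level was 1994 to 2717 CPM in w12_CD and 3441 to 4294 in w12_WD+VC, and the ranges did not touch. Saa4, at means of 274 and 1028 CPM, and Hp are large parts of this sum, which therefore does not describe the other members. The summed level of 22 macrophage markers was 114 to 257 CPM and 197 to 339, which overlap, and its part in the result was not tested.

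Male-biased liver genes, which pulsed growth hormone maintains in male mice, lay below 0 in all 15 cases tested, with a median of -1.11, 5 lower at an unadjusted p under 0.05 and none called. With single libraries left out, 12 to 15 lay below 0, with medians from -1.88 to -0.56. Mup7, a major urinary protein, stood at 849, 470 and 383 CPM in w12_CD and at 6.69, 25.2 and 286 in w12_WD+VC (log2 -2.68 ± 0.86, edgeR adjusted p = 0.13). The treated library with 286 CPM, replicate 3, lay much nearer to the controls than the others did. Without it the log2 fold change was -5.31 with an adjusted p of 0.0057. Mup3 showed the same pattern, at 1366, 694 and 475 against 143, 101 and 627 CPM, in overlapping groups. The uptake transporter Slco1a1 was tighter, at 86.9, 118 and 109 against 44.6, 54.5 and 40.9 CPM (log2 -1.15 ± 0.43, adjusted p = 0.201). Mup genes are near-identical copies, so reads may be split among them. Of 3 female-biased genes tested, the prolactin receptor Prlr had the smallest p and stood at 71.1, 106 and 85.8 against 40.1, 16.8 and 13.6 CPM (adjusted p = 0.0781).

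Genes that oxidise VC and clear its products did not pass the test. Cyp2e1, the enzyme that activates VC, stood at 1236, 1050 and 674 CPM in w12_CD and at 1276, 1254 and 1213 in w12_WD+VC, which overlap (log2 0.34 ± 0.44, edgeR adjusted p = 0.802). Of 11 members tested, 7 lay above 0 and 4 below, with a median of 0.34. Epoxide hydrolase Ephx1 had groups that did not overlap, at 27.6, 25.7 and 29.7 against 62.4, 46.1 and 47.7 CPM (adjusted p = 0.492). Glutathione genes were mixed, 5 above and 6 below of 12, and Gss, glutathione synthetase, stood at 186, 7.34 and 89.1 against 26.8, 25.2 and 20.4 CPM (adjusted p = 0.123). Gss shares exons with Acss2, and its difference rests on w12_CD replicate 1, without which the log2 fold change was -0.98 in place of -1.89.

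Among 8 tested genes for repair of VC DNA adducts, 6 lay above 0 and 2 below, with Lig3 the one called. Xrcc1, the scaffold that holds Lig3, had a log2 fold change of 0.73 (edgeR adjusted p = 0.769). Ung, a uracil glycosylase, stood at 31.6, 14.7 and 39.6 CPM against 46.8, 88.1 and 40.9, not overlapping (adjusted p = 0.497). Only 1 of 18 p53 target genes had enough counts to test. Of 15 xenobiotic P450 genes tested none was called. Cyp2c29 stood at 142, 88.1 and 172 CPM against 31.2, 37.7 and 75.0 (adjusted p = 0.157), while Por, the electron donor to all microsomal P450s, stood at 67.1, 33.1 and 23.1 against 138, 134 and 102 (adjusted p = 0.187).

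In lipid metabolism no list had a called member. Fatty acid and triglyceride synthesis had 7 of 21 above 0 and 14 below, with a median of -0.55, but this direction rests on w12_CD replicate 1. Without that library 17 lay above and 4 below, with a median of 0.27. The list summed to 5543, 885 and 624 CPM in w12_CD and 919, 990 and 1077 in w12_WD+VC. Sterol synthesis had 2 above and 13 below of 15, with a median of -0.45 (4 above and 11 below, median -0.30, without w12_CD replicate 1). PPAR-alpha targets had 11 above and 4 below of 15 (0.45), and mitochondrial beta-oxidation 15 above and 4 below of 19 (0.32). Scd1, the delta-9 desaturase, stood at 3917, 360 and 228 CPM against 216, 134 and 395, so that a single control library set the difference: log2 -2.63 in all libraries and -0.29 without w12_CD replicate 1. Insig1, the sterol sensor that holds SREBP in the endoplasmic reticulum, stood at 75.0, 29.4 and 19.8 against 2.23, 4.19 and 20.4 CPM (edgeR adjusted p = 0.137). The peroxisomal enzyme Ehhadh stood at 47.4, 36.7 and 33.0 against 118, 79.7 and 75.0 (adjusted p = 0.247), and the lipid droplet protein Cidec at 205, 191 and 244 against 84.7, 122 and 129 (adjusted p = 0.171).

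**Figure D4:**
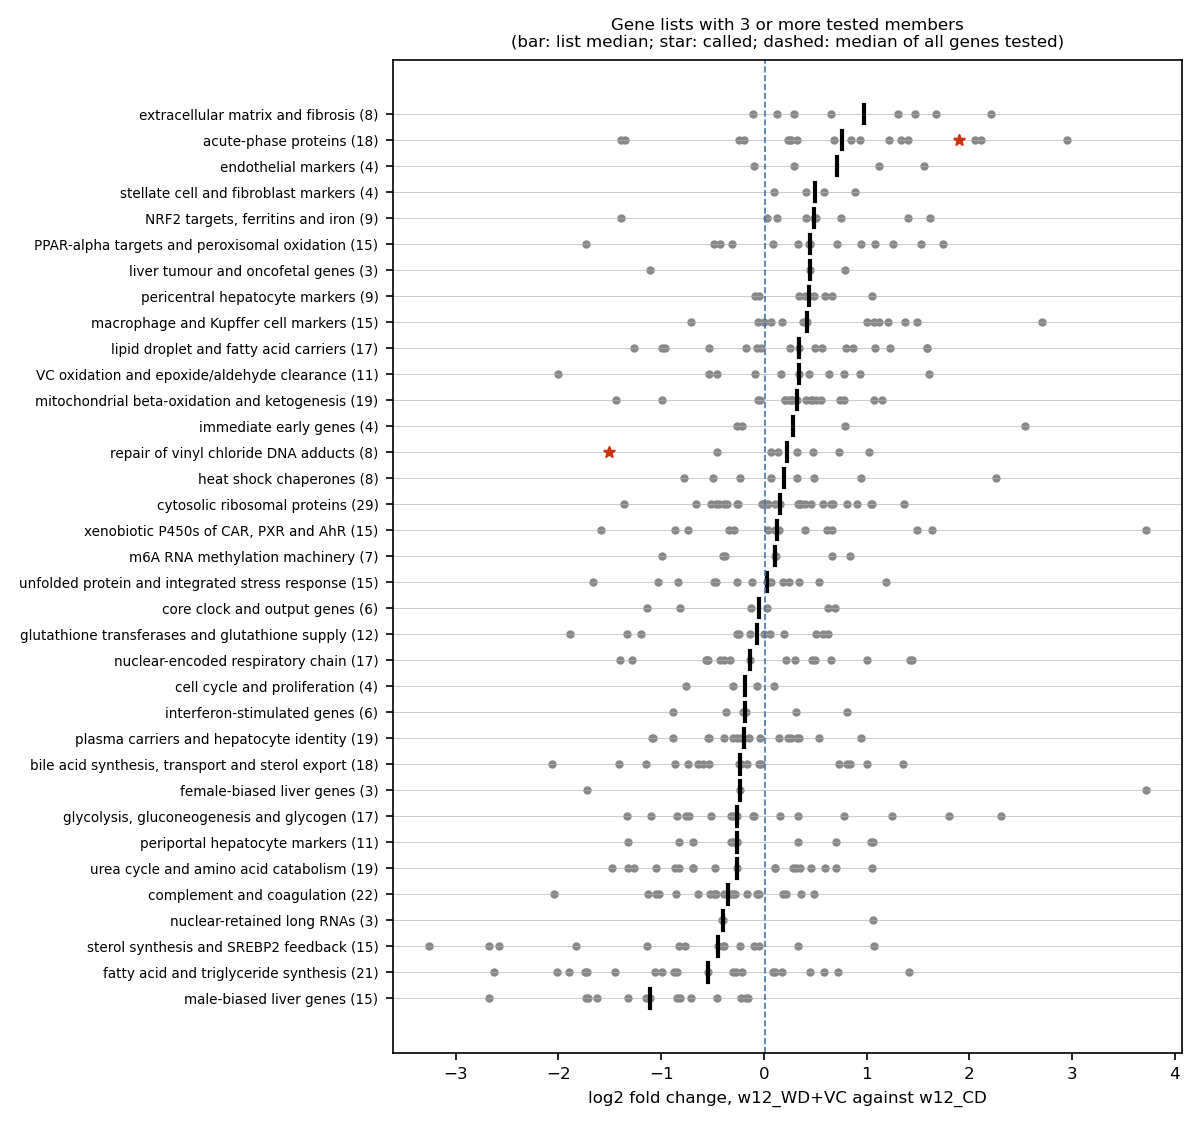
Tested members of the 35 gene lists with 3 or more tested members (number in brackets), with the log2 fold change of w12_WD+VC against w12_CD on the horizontal axis (grey dots single genes, black bars list medians, stars called genes, dashed line the median of all genes tested). Saa4 in the acute-phase list and Lig3 in the repair list are the called members. The male-biased list is the lowest, with all 15 members below 0.

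Bile acid genes were mixed, with 5 of 18 above 0, 13 below and none called (9 and 9 without w12_WD+VC replicate 1). Slc10a1, the sodium-dependent importer NTCP, stood at 162, 106 and 125 CPM against 37.9, 54.5 and 61.3 (log2 -1.41 ± 0.44, edgeR adjusted p = 0.12). Abcc3, a basolateral exporter, stood at 39.5, 22.0 and 39.6 against 105, 75.5 and 75.0 (log2 1.35 ± 0.43, adjusted p = 0.125). Neither had overlapping groups. Abcb11, the canalicular bile salt pump, stood at 170, 73.4 and 19.8 against 26.8, 21.0 and 6.82, which overlap (adjusted p = 0.125).

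Other plasma proteins were uneven. Of 22 complement and coagulation genes 4 lay above 0 and 18 below, with a median of -0.35 (8 and 14, median -0.19, without w12_CD replicate 1). Complement C6 stood at 75.0, 25.7 and 46.2 CPM against 4.46, 21.0 and 13.6 (edgeR adjusted p = 0.187). Apoe, the remnant lipoprotein ligand, stood at 8860, 6650 and 7092 against 14401, 13412 and 15696 (log2 0.94 ± 0.33, adjusted p = 0.178). Apob, the structural protein of those particles, stood at 734, 753 and 409 against 372, 273 and 382 (adjusted p = 0.257). The groups of Apoe and Apob did not overlap, in opposite directions. The 20 hepatocyte identity genes summed to 19938 to 30434 CPM in w12_CD and 27849 to 33288 in w12_WD+VC.

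Txnip, an arrestin-like brake on glucose uptake that glucose itself raises, was measured with the glucose genes. It stood at 15.8, 415 and 185 CPM in w12_CD and 1951, 730 and 341 in w12_WD+VC, in overlapping groups (log2 2.31 ± 0.66, edgeR adjusted p = 0.0781; log2 1.36 and adjusted p = 0.52 without w12_WD+VC replicate 1). The ribosomal protein gene Rpl27a came close to the threshold, at 150, 136 and 205 CPM against 306, 352 and 368 (adjusted p = 0.0598). It passed with RLE scaling, with DESeq2 and with limma-voom, while the 29 tested ribosomal genes as a list had 18 above 0, 11 below and a median of 0.16 (24, 5 and 0.41 without w12_CD replicate 1).

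Markers of non-parenchymal cells had low counts. Of 15 tested macrophage and Kupffer cell markers, 12 lay above 0 and 2 below with a median of 0.42, and none was called. Without w12_WD+VC replicate 1, 8 lay above and 6 below, with a median of 0.08. C1qa, a complement subunit made by Kupffer cells, had 2 counts over the w12_CD libraries and 15 over the w12_WD+VC libraries, a ratio of 7.45 with a 95% counting interval of 1.73 to 67.2 (edgeR adjusted p = 0.152). The Kupffer cell lectin Clec4f had a log2 fold change of 0.07. Endothelial scavenger receptors Stab1 (43.4, 88.1 and 46.2 CPM against 95.9, 168 and 129) and Stab2 (7.90, 11 and 16.5 against 40.1, 37.7 and 27.3) did not overlap. Groups did not overlap in the higher direction for 9.31% of all genes tested. The other tested endothelial markers, Egfl7 (log2 0.29) and Eng (-0.09), had overlapping groups. All 4 tested markers share exon bases with a gene on the other strand, and none was called. The 14 endothelial markers together summed to 655 to 1138 CPM and 839 to 927. Col4a1, a basement membrane collagen, stood at 27.6, 11 and 9.90 CPM against 103, 71.3 and 40.9 (log2 2.21 ± 0.62, adjusted p = 0.0721), and 7 of 8 matrix genes lay above 0 with a median of 0.97. T and NK cell markers summed to 51.3 to 59.4 CPM in w12_CD and 13.4 to 46.1 in w12_WD+VC, nearly all from Zap70, with 7 of the 12 in the table at 0 in all 6 libraries. Neutrophil markers summed to at most 3.95 CPM.

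The series title names tumour formation and the epitranscriptome. Of 7 tested genes of the m6A RNA methylation machinery 4 lay above 0 and 3 below, and none was called. The methyltransferase Mettl3 stood at 193, 158 and 231 CPM against 196, 113 and 129 (edgeR adjusted p = 0.622). The demethylase Alkbh5 stood at 27.6, 22.0 and 23.1 against 26.8, 8.39 and 47.7 (adjusted p = 0.991). Fto, with 4 counts against 5, and the reader Ythdf2, with 0 against 1, had too few counts to test. Alpha-fetoprotein, Afp, an oncofetal protein, stood at 115, 73.4 and 42.9 CPM against 44.6, 33.6 and 20.4 (log2 -1.11 ± 0.50, adjusted p = 0.318). The oncofetal proteoglycan Gpc3 had 0 counts in both groups and the proliferation marker Mki67 had 0 and 4, so differences in them were not detectable at this depth.

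At 12 months the same 2 treatments could be compared in libraries that share none with the 12-week ones. There, 252 genes were called, 132 higher (3.14%) and 120 lower (2.86%). The median log2 fold change there was -0.07 for entries with an opposite-strand overlap and 0.30 for those with none, and entries without overlap took 11.6% to 18.3% of counts in m12_CD and 18.2% to 23% in m12_WD+VC. The part of this shift in the values below was not tested. Of the 13 genes higher at 12 weeks, 10 had the same sign at 12 months and 1 was called in that direction. Of the 20 lower, 14 had the same sign and 6 were called in that direction, and none of the 33 was called in the opposite one. Median log2 fold changes of these genes went from 1.88 to 0.71 and from -1.95 to -0.27, and the genes were chosen for their 12-week values. App was the higher gene called again, at 21.9, 34.1 and 31.9 CPM in m12_CD and 104, 123 and 95.7 in m12_WD+VC (edgeR adjusted p = 0.00269). The lower genes called again were Usp24 and Nlrp5-ps, which have no overlap, and Efna3, Hectd2, Hcn3 and Acss2os, which do. Usp24 stood at 937, 434 and 386 against 44.6, 26.9 and 30.1 CPM, and Efna3 at 736, 380 and 157 against 44.6, 28.4 and 57.4. Cebpb had a 12-month log2 fold change of -0.03 and Saa4 of 1.01 (adjusted p = 0.118).

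The difference between the 12-month and the 12-week change was tested in the same model and called 5 genes, 0.119% of those tested, all with a lower value at 12 months. Fads2, the delta-6 desaturase of polyunsaturated fatty acid synthesis, had the smallest adjusted p. At 12 weeks it stood at 150, 84.5 and 49.5 CPM in w12_CD and 283, 239 and 218 in w12_WD+VC. At 12 months it stood at 315, 463 and 569 in m12_CD and 163, 127 and 118 in m12_WD+VC. The treated group was above the control group at the first time and below it at the second, with no overlap at either. The log2 fold changes were 1.41 (edgeR adjusted p = 0.057) and -1.75 (0.00265), and their difference of -3.16 had an adjusted p of 0.00207 and passed in each of 19 alternatives. Both controls and treated libraries enter that difference, and m12_CD lay above w12_CD.

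**Figure D5:**
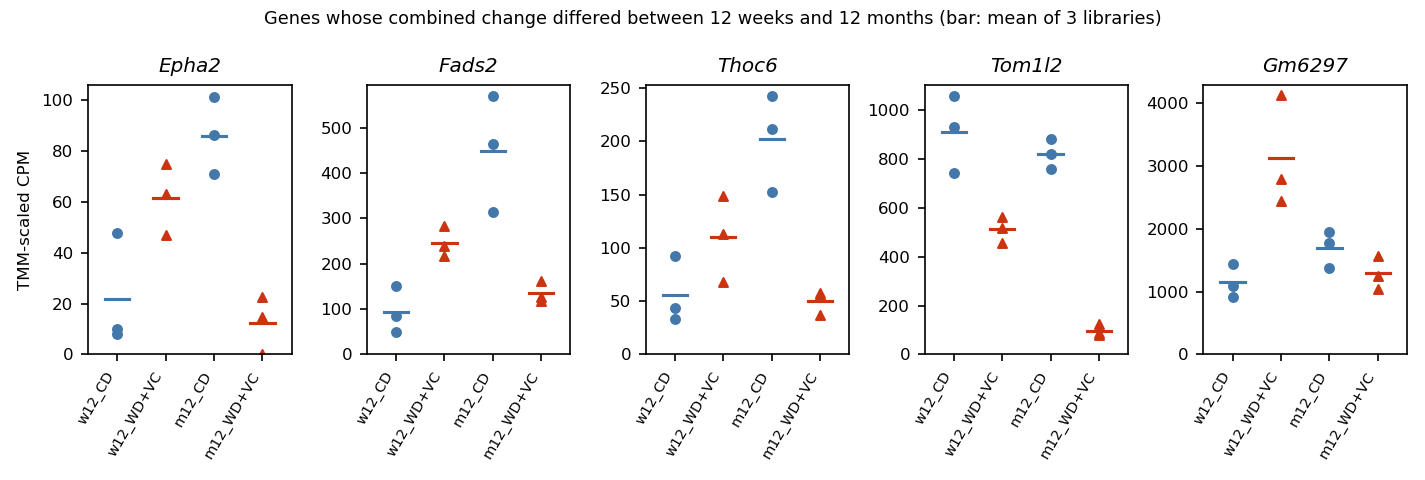
TMM-scaled CPM of the 5 genes whose combined change differed between times, in w12_CD, w12_WD+VC, m12_CD and m12_WD+VC (3 libraries each, circles control diet in air, triangles Western diet with VC, bars means). Fads2 is higher with treatment at 12 weeks, 218 to 283 against 49.5 to 150, and lower at 12 months, 118 to 163 against 315 to 569.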

How the data were processed

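Total liver RNA was extracted with Trizol, DNase-treated, depleted of ribosomal RNA with Ribo-Zero and made into libraries with the TruSeq RNA kit v2 for a HiSeq2500, per the labels' protocols. Trimmomatic 0.38, HISAT2 2.1.0, HTSeq 0.11.2 and mm10 were used, per the submitters' processing notes. Not given in the sources used here: annotation, strand setting, filters. The series table holds raw counts as deposited for 24421 gene symbols and 24 libraries, of which 15541 had a count. The deposited per-sample log2 values matched log2 of the count over its size factor plus 1 within 1e-06 and had no further use. Library totals ran from 126160 to 962493, except 607 in w12_WD replicate 3. Chi-square per degree of freedom between libraries of 1 group was 3.39 to 9.38, so they are distinct libraries.

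Symbols were placed on GENCODE M21 (GRCm38), 23334 by symbol and 659 by synonym, with 428 not placed, and exon overlap on the other strand was found with bedtools 2.31.1. edgeR 4.0.16 (R 4.3.3) used filterByExpr, TMM and 1 quasi-likelihood model of 8 groups, which kept 4198 genes (common biological variation 0.317). Each comparison was adjusted by Benjamini-Hochberg at 0.05. Standard errors were the absolute unshrunk log2 fold change over the root of F. Counting intervals are exact at 95% and, like the floor of 3 counts, cover counting error only. In a simulation of this comparison over 3615 genes, 8.96% of 2-fold, 58.2% of 4-fold and 81.8% of 8-fold changes were recovered, with 5 calls among unchanged genes.

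The members, the 42 gene lists and the tests were chosen with earlier results of these data known. The genes named were, among calls with a mean of 1 CPM or more, separate groups and no predicted symbol, the 12 of largest fold change in each direction, up to 4 called members of a list, up to 4 per direction for the difference between times, and a fixed set (Alb, Afp, Gpc3, Mki67, Cyp2e1, Fto, Mettl3, Alkbh5 and Ythdf2). For lists with no called member the gene with the smallest p could be named. Other genes were named after their values were seen. Alternatives were RLE size factors, no filter, DESeq2 1.42.0, limma-voom (limma 3.58.1) with quality weights, 23 libraries, 12 weeks alone, the compared groups alone, a replicate block, entries without overlap alone and leaving out each library. Leave-one-out values of the gene lists and of the diet-step calls were added after the data were seen.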

Additional observations from a re-analysis of the deposited data

Results flagged for a closer look

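In 5 genes the change with Western diet and VC differed between 12 weeks and 12 months, by the test of the difference in the edgeR model (Benjamini-Hochberg adjusted p under 0.05). Values are the log2 fold change at 12 months minus that at 12 weeks. Fads2, described in the report, had -3.16 (adjusted p = 0.00207). Thoc6, a subunit of the mRNA export complex THO, had -2.96 (0.0253), with 43.4, 33.1 and 92.4 CPM in w12_CD, 149, 113 and 68.2 in w12_WD+VC, 153, 212 and 243 in m12_CD and 37.1, 55.4 and 57.4 in m12_WD+VC. Its exons overlap Hcfc1r1. Epha2, a receptor of ephrin-A ligands, had -4.08 (0.0387), with 7.90, 47.7 and 9.90 CPM in w12_CD, 46.8, 62.9 and 75.0 in w12_WD+VC, 101, 70.7 and 86.2 in m12_CD and 14.9, 22.5 and 0 in m12_WD+VC. Tom1l2, a protein of endosomal sorting, had -2.21 (0.0387), with 742, 933 and 1057 against 564, 457 and 518 CPM at 12 weeks and 758, 821 and 882 against 81.7, 86.8 and 126 at 12 months. Gm6297 had -1.85 (0.0387), with 1778, 1368 and 1951 CPM in m12_CD and 1255, 1043 and 1567 in m12_WD+VC. Fads2 passed in each of its 19 alternatives. Under RLE size factors, where the median of all genes moved from 0.06 to 0.32, the other 4 did not pass. With single libraries left out, Tom1l2 did not pass in 11 of 12 fits, Gm6297 in 9, Thoc6 in 8 and Epha2 in 7.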

How the results depend on the processing

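The combined comparison called 33 genes, and 51 with no expression filter, 50 with DESeq2, 129 with limma-voom, 6 among entries without overlap alone, where 1666 genes were tested, and 52 with 12 weeks alone. RLE size factors gave 43, 23 libraries 34 and the compared groups alone 28. Leaving out 1 library gave 1 to 57 calls. The VC step called 0 genes, and 5 with no filter and 1 among entries without overlap, and 0 to 0 with a library left out. The diet step called 22, and 41 with no filter, 40 with limma-voom, 6 among entries without overlap and 13 with the compared groups alone, and 0 to 46 with a library left out. The difference between times called 5, and 1 with RLE, 13 with no filter, 12 with DESeq2, 68 with limma-voom and 2 among entries without overlap, and 1 to 31 with a library left out. Replicate numbers gave no pairing: the deviations of same-numbered libraries correlated at -0.113, 0.0705 and -0.0863, and not every library correlated best with its own number. With the number as a replicate block the combined comparison called 31 genes, 30 of them among the 33, and the difference between times called 13. Of the 33 calls, 29 were kept with RLE, 25 with no filter, 24 of 25 with an adjusted p in DESeq2, 30 of 33 with limma-voom and 31 with 23 libraries. Among the uncalled genes, Alb ran from -0.461 to 0.0728 with a library left out, the latter without w12_CD replicate 1, and Alkbh5 turned to -0.304 with limma-voom and ran from -0.349 without w12_WD+VC replicate 3 to 0.525 without replicate 2. The cause of these changes was not tested. With totals of 152082 to 566870 counts, most genes of low level could not be tested and changes of 2-fold were seldom recovered in simulation.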

Other observations

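The Western diet in air at 12 weeks is represented by 2 usable libraries, since w12_WD replicate 3 held 607 counts, and no comparison above contrasts this group, although its libraries were in the model. Cebpb stood at 137 and 119 CPM in them, and Saa4 at 541 and 323. The Cebpb values lay between the w12_CD and w12_WD+VC ranges, while 1 of the Saa4 values did and the other lay within the w12_CD range. Tor1a stood at 23.3 and 17.0 CPM, within the w12_CD range. Usp24 stood at 155 and 76.5, also within that range, and Reep6 at 816 and 926, the first within it and the second above. Efna3 stood at 49.2 and 93.5, below w12_CD and above w12_WD+VC. Lig3 stood at 142 and 76.5, Fkbp3 at 85.5 and 34.0, and Itgb1bp1 at 59.6 and 25.5, all below the w12_CD libraries. Hcn3 stood at 4406 and 6297, above them. Fads2 stood at 205 and 153 CPM, above the w12_CD values of 49.5 to 150, and Txnip at 54.4 and 59.5.

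Several genes outside the main groups had separate libraries without passing the test. Bag3, a co-chaperone, had 4 counts over the w12_CD libraries and 21 over the w12_WD+VC libraries (log2 2.26, edgeR adjusted p = 0.217), while Dnaja1 stood at 174, 187 and 195 against 105, 105 and 116 CPM (adjusted p = 0.247). Dnaja1 shares exon bases with Gm6297, which was called higher (log2 1.45), and reads of these entries cannot be told apart. Of the clock genes, Per2 stood at 115, 176 and 75.9 against 55.8, 54.5 and 54.5 CPM (adjusted p = 0.274) and Dbp at 111, 158 and 102 against 53.5, 96.5 and 61.3 (adjusted p = 0.304). Glul, the glutamine synthetase of hepatocytes around the central vein, stood at 79.0, 80.8 and 59.4 against 190, 138 and 116 CPM (adjusted p = 0.268), and 7 of 9 pericentral markers tested lay above 0. Of 11 periportal markers 4 lay above 0 and 7 below, but 7 lay above and 4 below, with a median of 0.08, without w12_CD replicate 1. Among them Apoa4 had a log2 fold change of 1.06 (adjusted p = 0.21), while Gls2, a glutaminase, stood at 201, 231 and 178 against 120, 134 and 81.8 CPM (adjusted p = 0.212).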
